A study of Mus musculus with 4 samples.

Results

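Transcripts of 10 genes that couple integrins to the actin cytoskeleton were followed in 4 libraries from the mouse ascending aorta and aortic arch. The genes were Vcl, Tln1, Flna, Actn1, Actn4, Zyx, Tns1, Lpp, Tpm1 and Cald1, taken by symbol from a table of 32948 genes, and all 10 were found. All animals carried Wnt1-Cre and the Rosa26-mTmG reporter, in which Cre recombinase switches a cell and its descendants from membrane tdTomato to membrane GFP. The driver is active in neural crest, a source of smooth muscle in the arch, and no group lacked Cre or the reporter. Tissue of 1 female sample, and of 2 male samples pooled, was digested to single cells and sorted by fluorescence into GFP and tdTomato libraries, called here the female pair and the male pair. The labels call all 4 libraries vascular smooth muscle cells, but the sort used no smooth muscle marker, and the sources used here give no ages. Each combination of sex and colour was 1 library, so sex, pooling and suspension cannot be told apart.

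Focal adhesions are plaques at the cell membrane where integrins, bound to the matrix outside, are linked to actin filaments inside. Talin binds the integrin tail and actin, vinculin reinforces that link, and actinins and filamin hold filaments together near it, while zyxin and its relatives gather at adhesions and stress fibres under tension. In smooth muscle of the aorta these plaques carry force between the contractile apparatus and the elastic matrix, and tropomyosin and caldesmon lie along the thin filaments that pull on them.

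Library totals ran from 10094167 counts (male GFP) to 13911111 (female tdTomato). Levels below are CPM (counts scaled to the TMM-adjusted sum of the tested genes), where 3 counts were worth 0.203 to 0.323 CPM. At least 10 counts were reached by 12008 and 9517 genes in the female and male GFP libraries and by 16227 and 15669 in their tdTomato partners. The 9 smooth muscle markers summed to 12566 to 17234 CPM, and each of them had counts in every library. Their most abundant member, Acta2 (the actin of smooth muscle), stood at 6807 CPM in GFP and 4939.5 in tdTomato of the female pair, and 4124 and 3729 in those of the male pair. Endothelial markers summed to 65.6 and 58.8 CPM in the GFP libraries and 453 and 303 in the tdTomato libraries, and 8 of 11 were at 0 in male GFP. Fibroblast markers summed to 639 CPM in male GFP against 3726 to 4623 elsewhere, with 1 of 9 at 0 in each GFP library. Most abundant in female GFP were Dcn, Gsn and Lum, at 2156, 831 and 722 CPM against 1940, 766 and 452 in female tdTomato. Col1a1, Col14a1 and Pdgfra were lower in GFP of either pair. They measured 71.3, 8.08 and 0 CPM in GFP and 200, 99.9 and 69.3 in tdTomato of the female pair. In the male pair they measured 58.1, 19.0 and 0.430 CPM in GFP and 157, 130 and 62.5 in tdTomato. For 4 of the 9 the colour ratio had opposite signs in the pairs. Macrophage markers summed to 0.860 CPM in male GFP and 31.1 to 164 elsewhere, with 4 and 5 of 9 at 0 in male and female GFP. Schwann cell and melanocyte markers summed to 342 and 245 CPM in the female and male GFP libraries and to 82.2 and 71.1 in tdTomato. Erythroid and platelet markers summed to at most 15.1 CPM.

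The 10 genes were abundant in all 4 libraries. By mean CPM they ranked from 32 (Cald1) to 1704 (Tln1) among the 15055 genes tested, and all 10 passed the filter on low counts. They took 0.638% and 0.961% of the counts in GFP and tdTomato of the female pair, and 1.15% and 0.815% in the male pair. Male GFP was the highest of the 4 libraries in summed level and female GFP the lowest, at 12435 and 6984 CPM, with the tdTomato libraries between them at 9027 and 7601.

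The proteins nearest the integrin were described first. Tln1 (ENSMUSG00000028465) encodes talin 1, which activates integrins and tethers them to actin. It measured 57.9 CPM in GFP and 79.0 in tdTomato of the female pair, and 214 and 77.4 in those of the male pair, so the male GFP library stood alone above 3 similar libraries. Vcl (ENSMUSG00000021823) encodes vinculin, which binds talin and actin once talin is stretched. It measured 501 CPM in GFP and 637 in tdTomato of the female pair, and 678 and 440.4 in those of the male pair, and the colours overlapped. Tns1 (ENSMUSG00000055322) encodes tensin 1, an adaptor that joins integrin tails to actin in mature adhesions. Its levels were 469 CPM in GFP and 788 in tdTomato of the female pair, and 1293 and 724 in those of the male pair, with the GFP libraries at both extremes.

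Among the crosslinkers, Flna (ENSMUSG00000031328) encodes filamin A, which joins actin filaments into networks and binds integrin tails. It measured 1359.6 CPM in GFP and 1867 in tdTomato of the female pair, and 2869.6 and 1393 in those of the male pair. Male GFP was again highest, while female GFP and male tdTomato were close together. Actn1 (ENSMUSG00000015143), which encodes the non-muscle alpha-actinin 1 that bundles stress fibres, measured 451 CPM in GFP and 570.2 in tdTomato of the female pair, and 518 and 541 in those of the male pair. It had the narrowest range of the 10 genes, 1.27-fold from lowest to highest, and was the gene whose GFP libraries both lay below both tdTomato libraries. Its paralog Actn4 (ENSMUSG00000054808), which encodes alpha-actinin 4, measured 145 CPM in GFP and 166 in tdTomato of the female pair, and 446 and 126 in those of the male pair, so 3 libraries were close and male GFP was apart.

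The LIM domain pair ran in opposite directions. Zyx (ENSMUSG00000029860) encodes zyxin, which is recruited to strained stress fibres and brings in actin-assembly factors. It measured 466 CPM in GFP and 314 in tdTomato of the female pair, and 167 and 322 in those of the male pair. Zyxin was the single member with its highest level in female GFP and its lowest in male GFP. Lpp (ENSMUSG00000033306) encodes the lipoma-preferred partner, a zyxin relative that is prominent in smooth muscle. It measured 751 CPM in GFP and 1427 in tdTomato of the female pair, and 2337 and 1209.6 in those of the male pair, the reverse order of zyxin in the GFP libraries, with tdTomato between them for both genes.

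The thin-filament proteins varied little. Tpm1 (ENSMUSG00000032366) encodes an alpha-tropomyosin, which winds along actin and sets myosin's access to it. It measured 876 CPM in GFP and 1002 in tdTomato of the female pair, and 1247 and 880.0 in those of the male pair. Cald1 (ENSMUSG00000029761) encodes caldesmon, an inhibitor of actomyosin ATPase in smooth muscle. It measured 1908 CPM in GFP and 2177 in tdTomato of the female pair, and 2666 and 1887 in those of the male pair. The highest library was 1.42-fold above the lowest for Tpm1 and 1.41-fold for Cald1, and male GFP was highest for both.

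**Figure D1:**
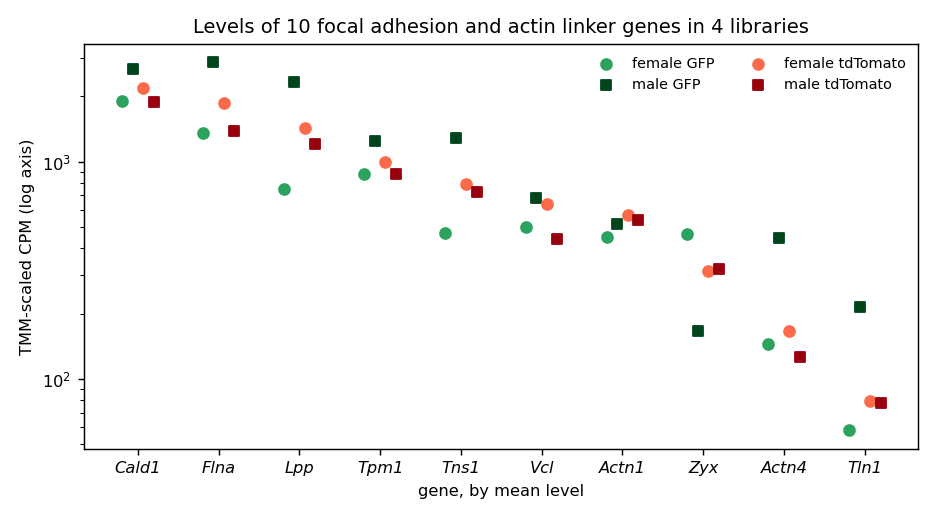
TMM-scaled CPM (log axis) of the 10 genes, with 1 point per library (2 colours from each suspension). Male GFP is the highest point for 8 genes and the lowest for Zyx (167 CPM), while Actn1 lies within 1.27-fold in all 4 libraries.

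Levels were compared between genes only after division by the length of the longest protein-coding transcript. On this scale the mean over the 4 libraries was 452 CPM per kilobase for Cald1, 346 for Tpm1 and 221 for Flna, which held the first 3 places in this order in each library. Actn1 followed at 139, Vcl at 107, Zyx at 99.5, Lpp at 92.6, Tns1 at 82.1 and Actn4 at 57.0, and Tln1 was last in each library with a mean of 12.8. The neighbours Actn1, Vcl, Zyx, Lpp, Tns1 and Actn4 were not separated by the spread over libraries. Zyx held place 4 in female GFP, with Actn1 at place 5, and place 9 in male GFP. In male GFP Lpp held place 4, Actn1 place 5 and Actn4 place 8. Divided by the union of all exons instead, Flna came first at 199 CPM per kilobase, ahead of Cald1 at 179 and Tpm1 at 154, and Tln1 stayed last at 10.9.

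The 250 bases before the annotated start sites of these genes were searched on both strands for the CArG box, the site of serum response factor, which drives many actin-linked genes in smooth muscle together with myocardin-family cofactors. Of 32851 windows of this length in the RefSeq promoter table (GRCm38.p6), 1.467% held a CArG box, and of the 12 windows of the 10 genes (Cald1 and Lpp have 2 each) the one of Vcl did. CArG-like runs with 1 outer base changed were in 11.117% of all windows and in those of Cald1, Flna and Tpm1. GGAATG, a core read by TEAD factors, was in 12.642% of all windows and in 6 of the 12, those of Actn4, Cald1, Flna, Lpp, Tpm1 and Vcl, and in these windows it shared no base with the CArG matches. The 4 windows with a CArG or CArG-like match are shown because they belong to genes of different roles with unlike ranges across the libraries. Each runs 5′ to 3′ on the gene's strand up to the base before the start site, and capitals mark CArG or CArG-like runs and GGAATG or its reverse complement CATTCC.
Vcl (chr14:20929148-20929397, plus strand): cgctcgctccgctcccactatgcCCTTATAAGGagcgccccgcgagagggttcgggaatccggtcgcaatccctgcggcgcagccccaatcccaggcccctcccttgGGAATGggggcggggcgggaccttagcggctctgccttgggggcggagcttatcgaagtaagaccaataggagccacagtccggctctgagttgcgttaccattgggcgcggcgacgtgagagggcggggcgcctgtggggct
Tpm1 (chr9:67049214-67049463, minus strand): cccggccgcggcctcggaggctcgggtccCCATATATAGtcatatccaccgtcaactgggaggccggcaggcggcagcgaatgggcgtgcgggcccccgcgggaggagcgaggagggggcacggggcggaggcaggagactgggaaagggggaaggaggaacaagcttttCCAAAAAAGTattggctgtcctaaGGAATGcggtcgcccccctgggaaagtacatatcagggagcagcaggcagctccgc
Cald1 (chr6:34598254-34598503, plus strand): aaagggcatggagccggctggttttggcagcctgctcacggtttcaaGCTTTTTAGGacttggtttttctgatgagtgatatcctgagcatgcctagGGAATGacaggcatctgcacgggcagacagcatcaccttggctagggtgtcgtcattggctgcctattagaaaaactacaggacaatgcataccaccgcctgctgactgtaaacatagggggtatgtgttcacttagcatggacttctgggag
Flna (chrX:74246535-74246784, minus strand): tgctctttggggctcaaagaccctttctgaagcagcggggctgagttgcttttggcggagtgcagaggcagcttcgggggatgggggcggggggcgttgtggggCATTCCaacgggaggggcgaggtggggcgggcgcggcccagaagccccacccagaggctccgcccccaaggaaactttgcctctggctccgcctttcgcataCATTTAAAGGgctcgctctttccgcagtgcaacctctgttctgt
The CArG box of Vcl, CCTTATAAGG, began 227 bases before the start. Tpm1 held the runs CCATATATAG and CCAAAAAAGT at 221 and 80 bases, Cald1 held GCTTTTTAGG at 203 bases, and Flna held CATTTAAAGG at 44 bases. Each of the 4 windows held both a CArG or CArG-like run and GGAATG or CATTCC. The ranges across libraries were 1.54-fold for Vcl, 1.42-fold for Tpm1, 1.41-fold for Cald1 and 2.11-fold for Flna. Any relation of the matches to these ranges was not tested. The matches are descriptions of the letters in these windows, and binding was not measured.

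The first comparison asked whether cells of the Wnt1-Cre lineage (GFP) differed from the other sorted cells (tdTomato) in these genes. None of the 10 passed the test of colour, and 9 of 10 had opposite signs in the female and male pairs. Among all 15055 tested genes 46% had opposite signs, and among the 3427 with a mean of at least 50 CPM, as all 10 genes had, 52.2%. In 8 genes GFP was below tdTomato in the female pair and above it in the male pair, a pattern held by 25.1% of genes at that level. Zyx showed the reverse, and Actn1 was lower in GFP in both pairs. Its GFP libraries both lay below both tdTomato libraries, as in 29.3% of all tested genes, and no member had both above (11.5%). These shares include many genes at low levels and were not taken at 50 CPM or more. Genes at least 2-fold lower in both pairs were 22.9% of all tested genes and 4.06% at 50 CPM or more. Those 2-fold higher were 5.17% and 7.67%.

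Talin 1 was 0.733-fold in GFP relative to tdTomato in the female pair (95% interval 0.668 to 0.805) and 2.77-fold in the male pair (2.57 to 2.99). These intervals are exact binomial and cover counting error only, since PCR reads without molecular identifiers are not independent molecules. Actn4 had the widest contrast between pairs, at 0.876-fold (0.824 to 0.931) in the female and 3.55-fold in the male pair (3.35 to 3.75). Filamin A was 0.728-fold (0.714 to 0.742) in the female pair and 2.06-fold (2.02 to 2.10) in the male pair. These 3 genes were the members at least 2-fold higher in GFP in the male pair. The same held for 21.5% of all tested genes, and for 1119 of the 3427 averaging 50 CPM or more. No member was 2-fold higher in the female pair (22%, and 700 of those 3427). No member was 2-fold lower either, against 37.8% of all tested genes in the female and 50% in the male pair. Among the 3427 genes averaging 50 CPM or more, 610 were 2-fold lower in the female and 967 in the male pair.

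Lpp and Tns1 were the members furthest below tdTomato in the female pair. Lpp was 0.527-fold there (0.514 to 0.540) and 1.93-fold in the male pair (1.89 to 1.97), and Tns1 was 0.595-fold and 1.79-fold. Vinculin was 0.786-fold (0.761 to 0.812) and 1.54-fold (1.49 to 1.59). Tpm1 and Cald1 had nearly the same ratios as each other in both pairs, 0.874-fold and 0.876-fold in the female and 1.42-fold and 1.41-fold in the male pair. Zyxin was 1.49-fold (1.43 to 1.54) and 0.518-fold (0.488 to 0.549). Actn1 was 0.790-fold (0.764 to 0.818) and 0.957-fold (0.923 to 0.992), and its male-pair ratio turned positive, 0.17 on the log2 scale, with relative log expression size factors.

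**Figure D2:**
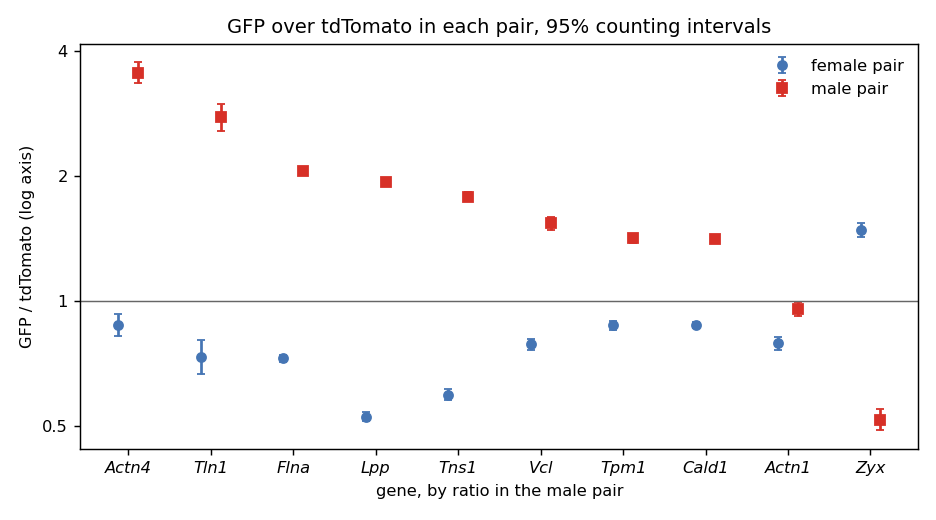
GFP over tdTomato fold (log axis) of each gene in the female and male pairs, with exact 95% binomial intervals for counting error. The 2 pairs fall on opposite sides of 1 for every gene but Actn1, at 0.790 and 0.957.

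With the suspension as a block, the mean log2 ratio over the 2 pairs was 0.82 ± 1.43 for Actn4, 0.51 ± 1.35 for Tln1, 0.29 ± 1.06 for Flna, 0.15 ± 0.49 for Tpm1 and for Cald1, and 0.14 ± 0.68 for Vcl (SD, n = 2 pairs). It was 0.04 ± 1.12 for Tns1, 0.01 ± 1.33 for Lpp, -0.19 ± 1.07 for Zyx and -0.20 ± 0.19 for Actn1. The SD was larger than the size of the mean in every gene but Actn1. edgeR's quasi-likelihood F test called none of the 10, all with an adjusted p of 1, and 0 of 15055 genes (0%), with 1298 (8.62%) at an unadjusted p under 0.05. The smallest unadjusted p among the 10 was 0.456, for Actn4. DESeq2 called 1157 genes (7.69%) and limma-voom 0, and the smallest adjusted p among the 10 was 0.952 with DESeq2 and 0.704 with limma-voom. The fit had 1 residual degree of freedom and a common dispersion of 1.47. Signs of small means depend on the scaling, which moved the median log2 difference of all genes from -0.88 with TMM to -0.69 with relative log expression size factors and -1.09 with library totals. With library totals the differences of Vcl, Tns1, Lpp, Tpm1 and Cald1 turned negative.

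The male and female suspensions were compared next, within each colour. The members differed by up to 3.70-fold between the GFP libraries, while the ratios between the tdTomato libraries ran from 0.691 to 1.03, and the difference between the colours was not tested. Male GFP exceeded female GFP 3.70-fold in Tln1 (3.40 to 4.04), 3.11-fold in Lpp (3.04 to 3.19), 3.07-fold in Actn4 (2.91 to 3.25), 2.76-fold in Tns1 (2.67 to 2.84) and 2.11-fold in Flna. These were 5 members at least 2-fold higher, against 27.9% of all tested genes, and 1 member, Zyx, was at least 2-fold lower, against 40.4%. Zyxin was 2.79-fold lower in male GFP (2.64 to 2.96). Tpm1, Cald1, Vcl and Actn1 were 1.42-fold, 1.40-fold, 1.35-fold and 1.15-fold higher.

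Between the tdTomato libraries no member was 2-fold apart in either direction, against 20.6% of tested genes higher and 21.6% lower in male. Shares over all tested genes include many at low levels. The median of the mean CPM was 13.8 over tested genes and 691 over the members. The male over female ratio there was lowest for Vcl, at 0.691, and highest for Zyx, at 1.03. No member had both male libraries above both female libraries (13.7% of tested genes) or below them (18.9%). The mean log2 difference between suspensions was 0.93 for Tln1, -0.72 for Zyx, 0.70 for Lpp, 0.67 for Tns1 and 0.61 for Actn4, and from -0.05 to 0.33 for the other 5 genes. edgeR's quasi-likelihood test gave every member an adjusted p of 1 and called 0 of 15055 genes (0%), with 262 (1.74%) at an unadjusted p under 0.05. DESeq2 called 140 genes (0.93%) and limma-voom 0. The smallest unadjusted edgeR p among the members was 0.288, for Lpp.

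Male GFP was the highest of the 4 libraries for 8 members, where 42.3% of genes averaging 50 CPM or more had it highest, and the lowest for 1, Zyx (36.6%). Female GFP was the lowest library for 6 members (23.8%). In 4 members, Actn1, Cald1, Tpm1 and Vcl, the highest library was under 2-fold above the lowest. The same held for 6.58% of all tested genes, 16.2% of those at 50 CPM or more and 23.1% at 100 CPM or more. It held for 9.52% to 33.3% of the tested genes in each of the 4 lists read below, and for 66.7% of the smooth muscle markers. Without male GFP it held for 10 members (45% of genes at 50 CPM or more) and without female GFP for 7 (28.3%). Without either tdTomato library it held for 4 (20.3% and 22.2%). The male GFP library also stood apart in other measures. Malat1, a nuclear RNA, reached 98167 CPM there against 41356 to 45392 elsewhere, mitochondrially encoded transcripts summed to 23827 CPM against 50402 to 65340, and 7.56% of genes averaging 50 CPM or more had 3 counts or fewer there against 0.175% to 2.31%. Their part in the levels of these genes was not tested. In bulk libraries, fewer cells of a type and less RNA per cell cannot be told apart.

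The members at least 2-fold higher in male GFP included every member with a transcript of 8 kb or more, namely Lpp (15.5 kb), Tns1 (9.97 kb), Flna (8.46 kb) and Tln1 (8.39 kb). Actn4 (3.88 kb) was the fifth, and the gene that was lower, Zyx, has 3.19 kb. Among genes averaging 50 CPM or more, the median log2 ratio of male to female GFP was -0.74 for transcripts under 2 kb (830 genes), 0.08 for 2 to 4 kb (1033), 0.52 for 4 to 8 kb (984) and 0.82 for 8 kb or more (279). Between the tdTomato libraries the same medians lay between -0.12 and -0.02. Of the genes of 8 kb or more, 45.9% were at least 2-fold higher in male GFP. The ratio moved with transcript length across genes at this level, and its part in the ratios of Lpp, Tns1, Flna and Tln1 was not tested. Actn4 and Zyx fall in the class of 2 to 4 kb, with log2 ratios of 1.62 and -1.48, and 32.1% of genes in that class were at least 2-fold higher in male GFP.

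**Figure D3:**
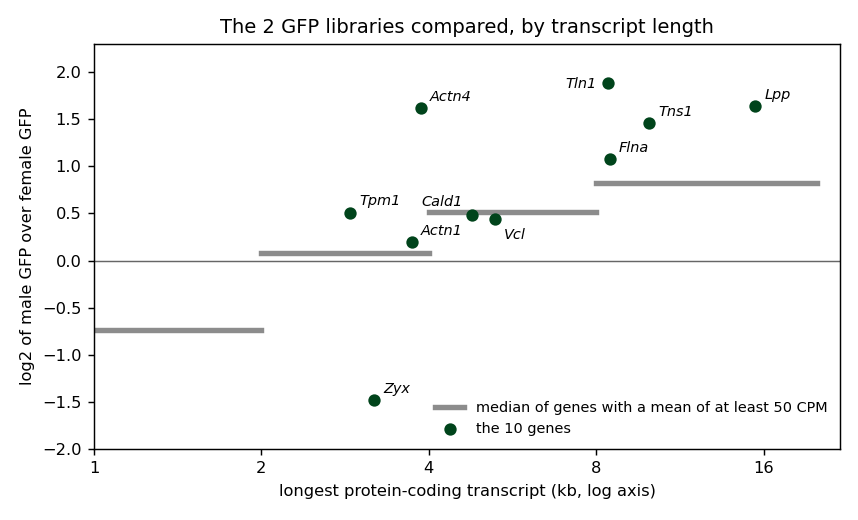
Log2 ratio of male to female GFP against transcript length (kilobases, log axis) for the 10 genes (points), with the median of genes at 50 CPM or more in each length class (lines, with the lowest class drawn from 1 kb and the highest to 20 kb). The medians run from -0.74 to 0.82 and the 4 longest members sit above 1.

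Shares within families were taken from raw counts, so that scaling between libraries cancels. The shift with transcript length between the GFP libraries, given above, does not cancel, and division by length does not remove it. Paralogs differ in length, as do Zyx (3.19 kb) and Lpp (15.5 kb), or Tns2 (4.76 kb) and Tns1 (9.97 kb). The part of length in the shares was not tested. Near-identical stretches of paralogs could split reads between them. Actn4 made up 24.4% of the actinin pair (Actn1 and Actn4) in GFP and 22.5% in tdTomato of the female pair, and 46.3% (exact 95% interval 45.3 to 47.3) and 18.9% in those of the male pair, so the male GFP share was the one that stood apart. The summed level of the pair was 596, 736, 964 and 667 CPM in that order. Zyx made up 38.3% of Zyx and Lpp in GFP and 18.0% in tdTomato of the female pair, and 6.66% and 21.0% in those of the male pair. The tdTomato shares were close, and the GFP libraries lay on either side of them. Divided by transcript length the zyxin share was 75.1%, 51.6%, 25.7% and 56.4%.

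In the talin and tensin families the member studied here was the main form. Tln1 made up 93.5% to 99.3% of talin counts, with the highest share in male GFP. Tns1 made up 87.2% of tensin counts in GFP and 84.3% in tdTomato of the female pair, and 99.6% and 72.0% in those of the male pair. Tns3, another tensin, had 873 counts in female and 2460 in male tdTomato (6.31% and 17.8% of the family), against 5 and 0 in the GFP libraries. Tns2 made up 12.7% in GFP and 9.36% in tdTomato of the female pair, and 0.373% and 10.2% in those of the male pair. Endothelial markers other than Flt1, given above, were also higher in tdTomato, and the part of endothelial cells in the Tns3 counts was not tested. Tropomyosin was different, because Tpm2 was the main form, with 71.1% of the family in GFP and 55.4% in tdTomato of the female pair, and 52.5% and 58.2% in those of the male pair. Tpm1 held 29.9% to 34.1% in 3 libraries and 20.7% in female GFP, where Tpm2 reached 3003 CPM against 1625 to 2188 elsewhere.

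**Figure D4:**
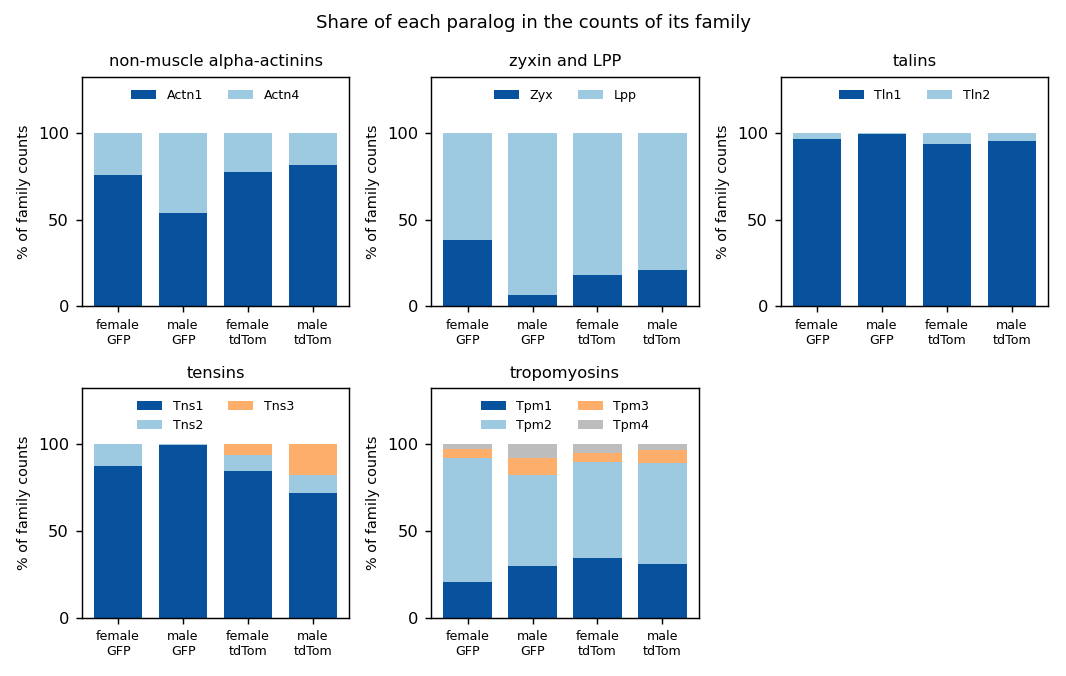
Share (percent of raw counts) of each paralog within 5 families in the 4 libraries, drawn as stacked bars that sum to the whole family. The Actn4 share is 46.3% in male GFP against 18.9% to 24.4% elsewhere, and the Zyx share falls on either side of the tdTomato libraries in the 2 GFP libraries.

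Other genes of the adhesion and its filaments were read in 4 lists. edgeR's quasi-likelihood test called 0 of their tested genes. Of all tested genes 5.17% were at least 2-fold higher in GFP in both pairs and 22.9% at least 2-fold lower, and genes absent from GFP could enter through the tdTomato libraries alone. No member was 2-fold apart in both pairs in either direction. Of genes averaging 50 CPM or more, 7.67% were 2-fold higher in both pairs and 4.06% lower. The members had a median log2 ratio of -0.34 in the female and 0.73 in the male pair, beside -0.27 and -0.998 over all tested genes and 0.19 and 0.24 over genes averaging 50 CPM or more.

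Among 21 tested integrin-proximal adaptors and kinases, 1 was at least 2-fold higher in GFP in both pairs and 5 were lower. The gene that was higher was Ptk2, which encodes focal adhesion kinase. It measured 73.5 CPM in GFP and 29.5 in tdTomato of the female pair, and 467 and 51.5 in those of the male pair, which is 2.49-fold (2.22 to 2.80) and 9.07-fold (8.38 to 9.83), with an adjusted p of 0.792 by edgeR. Tln2, the other talin, was 2.63-fold and 2.61-fold lower in GFP, and the other genes that were lower were Pxn, Bcar1, Git2 and Tns3. Paxillin (Pxn), a core adhesion scaffold, was at 0 counts in GFP of either pair and at only 2.03 (female) and 2.83 CPM (male) in tdTomato. Tns3 was 147-fold lower in female GFP (62.9 to 455) and at least 554-fold lower in male GFP. The most abundant genes of the list were Kank1, Fermt2 (kindlin 2, which activates integrins with talin) and Nedd9. Kank1, a talin-binding protein at the rim of adhesions, measured 444 CPM in GFP and 490.3 in tdTomato of the female pair, and 1336 and 366 in those of the male pair, the same order of GFP libraries as Tln1. Nedd9, a docking protein of focal adhesion kinase, measured 603 CPM in male GFP and 84.8 to 123 elsewhere.

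Of 18 LIM domain adaptors, 1 (Pdlim7) was at least 2-fold higher in GFP in both pairs and 1 (Pdlim2) lower. Pdlim7, which binds tropomyosin, was 2.13-fold and 3.67-fold higher, with an adjusted p of 0.811. The list median was 0.22 in the female and 0.59 in the male pair on the log2 scale. The most abundant were Fhl1, at 1166 and 2279 CPM in GFP of the female and male pairs, Csrp2, at 1416.5 and 848, and Fblim1, at 841 and 705. In the GFP libraries Fhl1 followed Lpp in direction and Csrp2 followed Zyx.

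Of 20 tested crosslinkers and membrane linkers, 0 were at least 2-fold higher in both pairs and 8 (40%) were lower, among them Palld, Sorbs2, Ablim1 and Ezr. Ablim1, an actin-binding LIM protein, was 25.2-fold lower in female GFP (19.5 to 33.2) and 162-fold lower in male GFP (85.2 to 355), with an adjusted p of 0.577. Flnc, a paralog of Flna, was 2.82-fold lower in the female and 3.90-fold lower in the male pair, where Flna was higher. Ezr, which links actin to the membrane of many epithelial and endothelial cells, was at 0 counts in GFP of either pair and at 7.77 (female) and 52.8 CPM (male) in tdTomato. Enah, an actin-assembly factor that zyxin recruits, had the opposite tendency. It measured 1173.5 CPM in GFP and 984 in tdTomato of the female pair, and 2078 and 607 in those of the male pair, highest in male GFP where Zyx was lowest.

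Of 20 actin, myosin and filament-binding genes, 0 were 2-fold apart in both pairs in either direction. Their median log2 ratio was 0.30 in the female and -0.37 in the male pair, opposite in sign to the medians of the 10 members in each pair. Among all genes averaging 50 CPM or more, this ratio also differed by transcript length. Its medians in the female and male pairs were 0.38 and -0.24 under 2 kb, and -0.31 and 0.50 at 8 kb or more. The part of length in the contrast between the lists was not tested. Acta2, given above, was highest in female GFP, and so were Dstn (destrin, which severs filaments) at 6127 CPM against 4476 to 5719 elsewhere and Actb at 3656 CPM against 1518 in male GFP. Tagln (transgelin, an actin-binding protein of smooth muscle) was also highest in female GFP, at 3759.7 CPM, and lowest in male GFP, at 2430.1. Tpm3, a further tropomyosin, was 1.49-fold and 1.80-fold higher in GFP in the female and male pairs, and Cnn3, a calponin, was 1.25-fold and 1.64-fold lower. Myh11, the smooth muscle myosin heavy chain, was highest in male GFP at 2424 CPM against 1123.3 to 1350.3 elsewhere.

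**Figure D5:**
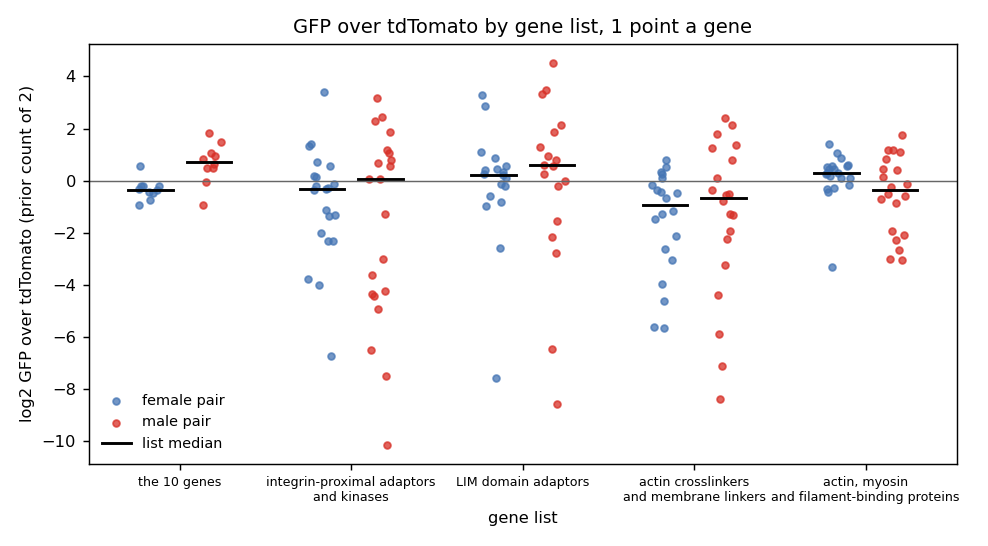
Log2 ratio of GFP to tdTomato in the female and male pairs for the members and the 4 lists, with 1 point per tested gene and the list median as a bar. The members' median is -0.34 in the female and 0.73 in the male pair, and that of the filament list is 0.30 and -0.37.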

How the data were processed

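The data were SMART-Seq v4 libraries (oligo(dT) priming, PCR, transposase fragmentation, 2 × 150 base pairs), per the labels' protocols; this kit does not mark strand. fastp, HISAT2, StringTie and GRCm39 were used, per the submitters' processing notes, without versions, and for the counting program and annotation the sources used here name nothing. The authors deposited expected counts (estimated counts, 59.4% to 69.1% whole at a tolerance of 1e-06), unscaled, for 32948 Ensembl genes. They were rounded to whole numbers. Symbols and lengths came from GENCODE M21 (GRCm38) by identifier for 76.4% of genes, and its positions were not used. Of 145 list symbols, 7 were not matched and not analysed here. A withheld gene is not reported here, although counts include it.

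Genes passing edgeR's filterByExpr at 10 counts, which asks for 2 libraries, were tested (15055). edgeR 4.0.16 (R 4.3.3) fitted colour and suspension together with TMM factors of 0.922 and 1.08 (female) and 0.931 and 1.08 (male) for GFP and tdTomato, and p-values were adjusted by Benjamini-Hochberg (threshold 0.05). Alternatives were DESeq2 1.42.0, voom of limma 3.58.1, other scalings, filters, prior counts, lengths, no block and leaving out each library. The suspension pairs GFP and tdTomato cells of 1 digest, per the labels. Over 15055 genes the female minus male log2 differences of the colours correlated at 0.05. Log2 ratios used a prior count of 2; folds used none, and against 0 counts 3 counts in that library, written "at least". Single-library comparisons have no test, and p-values measure only the spread between 2 suspensions. The fits were tested on simulated data, and how many known changes they recovered is not given here.

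The members and lists were chosen with earlier results of these data known. Named genes were the members, their paralogs, in each list the 3 highest by mean CPM and the gene furthest apart in each direction with the same sign in both pairs and a level of 10 CPM in each library of the colour that was higher. Genes listed in brief counts, Malat1, Col1a1, Col14a1, Pdgfra, Enah's comparison with Zyx, Actb, Myh11 and the lengths were chosen after their values were seen.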

Additional observations from a re-analysis of the deposited data

Results flagged for a closer look

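In 9 of the 10 genes the female pair moved one way and the male pair the other. The difference between pairs (log2 GFP over tdTomato, male pair minus female pair) was 2.02 for Actn4, 1.91 for Tln1, 1.88 for Lpp, 1.58 for Tns1, 1.50 for Flna, 0.97 for Vcl, 0.70 for Tpm1, 0.69 for Cald1 and -1.52 for Zyx. With 1 library per combination these differences were not tested, and 46% of all tested genes had opposite signs. Groups of 2 libraries are too small for a search for outlying samples.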

How the results depend on the processing

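DESeq2 called 1157 genes between the colours and 140 between the suspensions where edgeR called 0 (limma-voom 0), and edgeR without the filter on low counts called 2 between the suspensions, Xist and the unnamed ENSMUSG00000119584. None of these calls was a member. Without the replicate block edgeR called 0 genes between the colours, as it did between the suspensions without the colour term, and no call of a member changed. Members within 2-fold over the libraries numbered 4 to 10 when 1 library was left out, 10 without male GFP and 7 without female GFP. This alternative and the length classes were added after seeing the data. At 100 CPM or more the length medians of male to female GFP kept their signs (-0.75, 0.17, 0.64 and 0.88). The colour difference (log2) turned with library totals in Vcl (-0.084), Tns1 (-0.18), Lpp (-0.21), Tpm1 (-0.067) and Cald1 (-0.067), and with a filter at 50 CPM in Vcl (-0.12), Tns1 (-0.22), Lpp (-0.25), Tpm1 (-0.11) and Cald1 (-0.11). It also turned in Lpp without the filter (-0.021) and in Zyx with limma-voom (0.021). Between the suspensions Vcl turned with relative log expression size factors (0.014) and DESeq2 (0.014), and Actn1 without the filter (-0.00076). The male-pair ratio of Actn1 turned to 0.17 with relative log expression size factors. The cause was not tested. Leaving out 1 library at a time, the colour difference ran from -0.11 to 0.42 for Vcl, -0.44 to 1.53 for Tln1, -0.27 to 0.89 for Flna, -0.31 to -0.03 for Actn1, -0.012 to 1.69 for Actn4, -0.86 to 0.54 for Zyx, -0.70 to 0.85 for Tns1, -0.82 to 0.90 for Lpp, -0.11 to 0.48 for Tpm1 and -0.10 to 0.47 for Cald1. The suspension difference ran from -0.36 to 0.25 for Vcl, -0.20 to 0.83 for Flna, -0.060 to 0.23 for Actn1, -0.29 to 1.52 for Actn4, -0.080 to 0.41 for Tpm1 and -0.10 to 0.38 for Cald1. It kept its sign for Tln1 (0.19 to 1.65), Zyx (-1.23 to -0.26), Tns1 (0.22 to 1.10) and Lpp (0.17 to 1.24). Each of these fits held colour or suspension alone, so the other factor was not blocked. Without male GFP, for example, male tdTomato was set against both female libraries. Between the tdTomato libraries alone the male over female log2 ratio of these genes had the other sign. It was -0.03 for Tln1, 0.04 for Zyx, -0.12 for Tns1 and -0.24 for Lpp. When a library was left out, the lone library of a colour was assumed to vary like the others. No member was limited by depth, since each was far above the worth of 3 counts in every library.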

Other observations

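Several regulators of actin and adhesion were low in the male GFP library alone, and they were picked after their values were seen. Cfl1, which encodes the severing protein cofilin 1, measured 156 CPM in GFP and 107 in tdTomato of the female pair, and 9.79 and 81.0 in those of the male pair. Myh9, a non-muscle myosin heavy chain, measured 118 CPM in GFP and 98.5 in tdTomato of the female pair, and 27.3 and 104 in those of the male pair. Its transcript of 7.43 kb falls in the class of 4 to 8 kb, whose median log2 ratio of male to female GFP was 0.52. The part of length in the level of Myh9 was not tested. Crk, an adaptor downstream of adhesion kinases, measured 0.753 CPM in male GFP against 119 to 316 elsewhere. Synpo (synaptopodin, an actinin-binding protein) went the other way, at 294 CPM in male GFP against 4.72 in female GFP and 77.2 and 65.9 in the female and male tdTomato libraries.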
